A study of Arabidopsis thaliana with 28 samples.

Results

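RNA-seq libraries of closed flower buds of Arabidopsis thaliana fell into 2 sets by the level of LHY (AT1G01060), a Myb transcription factor of the circadian clock. The sets were chosen by measured values: 4 libraries had LHY over 100 CPM (gene counts scaled to a common library total) and the other 4 had it under 30 CPM, out of 8 RNA libraries in a series of 28 samples that also holds 20 chromatin libraries, which were not used here. The high-LHY set was made of ibm1 jmj27 (LHY at 487 and 489 CPM) and pds5 (616 and 598 CPM), and the low-LHY set of ibm1 (18.6 and 20.6 CPM) and Col (3.03 and 2.85 CPM). The lowest library of the high set was at 487 CPM and the highest of the low set at 20.6 CPM, so no library lay near either limit. All 27416 genes of the count tables were taken, of which 21548 had enough counts to be tested.

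Col is the wild type, and each genotype has 2 libraries. ibm1 and ibm1 jmj27 carry mutations in histone demethylase genes of the jumonji family, ibm1 in IBM1 and ibm1 jmj27 in IBM1 and JMJ27. pds5 is labelled as a mutant of the PDS5 family of cohesin cofactors, without saying which of its genes are mutated. No allele is named, and all buds came from plants without a stated treatment. The labels describe a long-day chamber (16 h of light) and a short-day chamber (8 h of light), both at 22 °C, but do not assign the libraries to them and give no hour of harvest. Because each set is made of whole genotypes, genotype and anything that went with a genotype at growth or harvest cannot be told apart. Nothing says that the 2 libraries of a genotype came from separate plants, so the spread behind the p-values is that between libraries and may be technical.

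The plant clock is a loop of transcription factors that are made at successive times of day. LHY and its partner CCA1 are made around dawn and repress genes of the evening; the pseudo-response regulators PRR9, PRR7, PRR5 and TOC1 follow in turn through the day and repress CCA1 and LHY; at night the evening complex of ELF3, ELF4 and LUX represses several of the day genes. Outputs of this loop include starch turnover, chlorophyll and light-harvesting proteins, flavonoids, cold tolerance and the CONSTANS route to flowering.

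Library totals ran from 19490663 to 26038662 counts, with 0.569% to 0.832% of a library in its top gene. IBM1 was at 18.8 and 21.4 CPM in ibm1 jmj27, 55.7 and 53.8 CPM in pds5, 21.2 and 20 CPM in ibm1 and 52.5 and 55.5 CPM in Col, so it was low in both genotypes named for it. JMJ27 was at 8.35 and 8.4 CPM in ibm1 jmj27 and at 60.3 to 77.7 CPM in the other 6 libraries. In pds5, PDS5A was at 3.3 and 3.51 CPM, PDS5B at 4.96 and 4.09 CPM and PDS5C at 42.9 and 37.5 CPM, each below the 6 other libraries. PDS5D was within the range of the others, and PDS5E was at 81.7 and 76.7 CPM in pds5 against 104 to 147 CPM elsewhere. The 2 libraries of ibm1 jmj27 differed most from each other: a chi-square of their counts over genes was 15.0 per degree of freedom, against 2.34 to 5.78 in the other genotypes. Of the floral organ regulators, all 8 were detected, with a summed level of 1263 to 1375 CPM in the high set and 1119 to 1193 CPM in the low set. Pollen and tapetum markers differed between genotypes within both sets, and their values stand beside the marker plot.

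Of 21548 genes, 761 (3.53%) were higher in all 4 high-LHY libraries than in all 4 low-LHY libraries with a log2 difference of the set means of at least 1, and 541 (2.51%) were lower by the same rule. Since the sets were selected on LHY and every gene was measured in the same libraries, these differences are a description without a test. The median difference of all genes was 0.00 on the log2 scale. Without the fold limit, 3239 genes were higher and 2963 lower without overlap, and of those that met the rule 623 were higher by 1 to 2 log2 units and 28 by at least 3, against 424 and 33 lower. The gene nearest the limit on its inner side differed by 1.0002 and the nearest outside by 0.9988. In 284 genes every one of the 4 pairs of genotypes across the sets differed upward by at least 1 log2 unit, and in 171 every pair differed downward by as much.

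**Figure D1:**
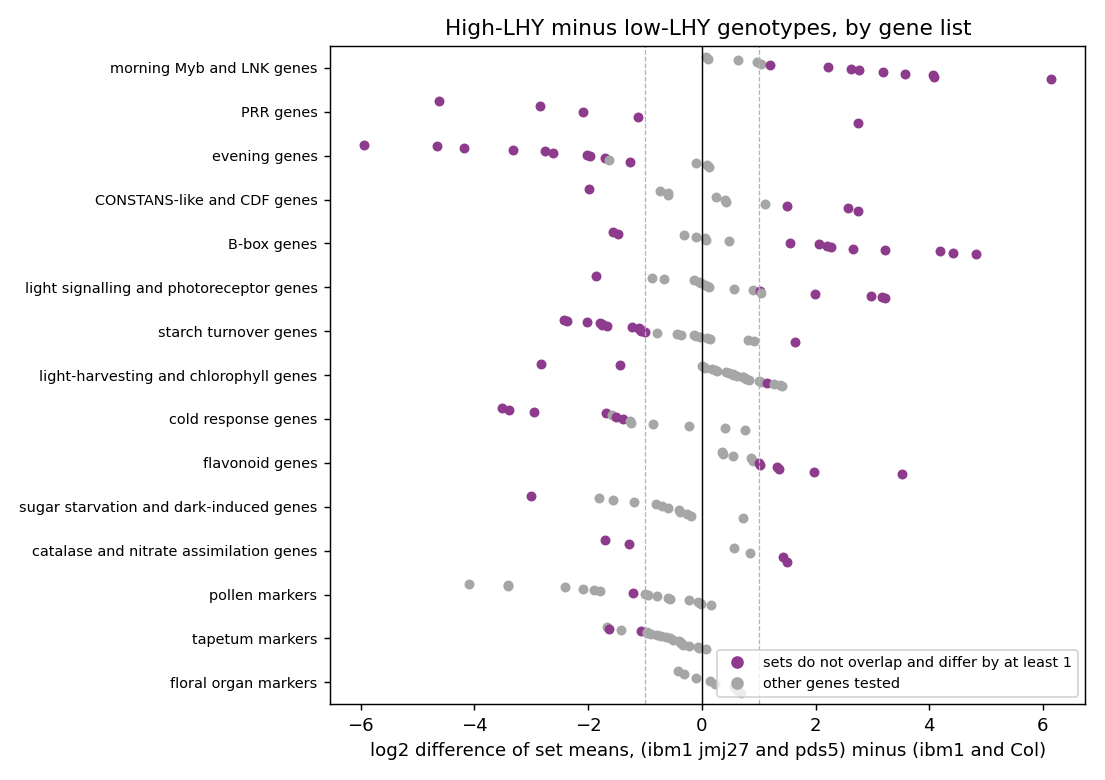
Log2 difference of the set means (ibm1 jmj27 and pds5 minus ibm1 and Col, x axis) for each tested gene of 15 gene lists (rows); purple points are genes whose 4 high-LHY libraries lie wholly above or below the 4 low-LHY libraries and that differ by at least 1 (dashed lines). Purple points of the morning list lie on the right only and those of the evening list on the left only, from 6.14 for LHY to -5.93 for FKF1.

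LHY itself was the gene with the highest difference of all, 6.14 on the log2 scale, with a range of 4.65 to 7.64 over the 4 pairs of genotypes. Of the 14 morning Myb and LNK genes, 9 met the rule as higher, none as lower, and 5 did not meet it. LHY is among the 9 and met the rule by the choice of the sets. Among all genes tested, 3.53% met it as higher and 2.51% as lower. The list median, LHY included, was 2.42 against 0.00 over all genes. CCA1 (AT2G46830), the partner of LHY, was at 185 and 202 CPM in ibm1 jmj27, 381 and 379 CPM in pds5, 50.4 and 48.4 CPM in ibm1 and 5.52 and 4.77 CPM in Col. The genotypes did not overlap, and the level fell into 4 steps with pds5 at the top and Col at the bottom. RVE8 (AT3G09600), a related Myb factor that activates evening genes, was at 105 and 93.7 CPM in ibm1 jmj27, 138 and 132 CPM in pds5, 18.8 and 18.5 CPM in ibm1 and 2.45 and 2.43 CPM in Col, a set difference of 4.07. RVE8 followed the same order of genotypes as CCA1.

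RVE3, of the same clade as RVE8, was at 9.59 and 8.87 CPM in ibm1 jmj27 and 39.4 and 34.6 CPM in pds5, against 6.08 and 5.8 CPM in ibm1 and 0.46 and 0.767 CPM in Col. The step between its 2 high genotypes was thus larger than the gap between ibm1 jmj27 and ibm1. RVE1, a Myb factor that links the clock to auxin, had 9.94 and 13.7 CPM in ibm1 jmj27 and 46.6 and 43.3 CPM in pds5, against 4.32 and 5.11 CPM in ibm1 and 3.52 and 2.3 CPM in Col. RVE4 differed by 1.204 between the sets, and its libraries ran from 71.4 to 94.5 CPM in the high set and from 23.9 to 53.6 CPM in the low set. LNK2 (AT3G54500), a coactivator that works with RVE8 and RVE4, was at 404 and 391.6 CPM in ibm1 jmj27, 393 and 356 CPM in pds5, 149 and 164 CPM in ibm1 and 43.7 and 42.7 CPM in Col. Its 2 high genotypes overlapped. LNK3 and LNK4, the smaller members of that family, differed by 3.58 and 2.76 between the sets.

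The 5 morning genes that did not meet the rule were RVE2, RVE5, RVE6, RVE7 and LNK1. RVE2 was high in pds5 alone, at 52 and 48 CPM, against 7.49 and 6.44 CPM in ibm1 jmj27, 6.87 and 6.05 CPM in ibm1 and 13.7 and 13.9 CPM in Col. LNK1 was low in Col alone, at 41.6 and 48.1 CPM, while ibm1 (127 and 128 CPM) lay at the low end of ibm1 jmj27 (128 and 164 CPM) and below pds5 (171 and 166 CPM). RVE6, which overlaps in role with RVE8 and RVE4, stayed between 15.4 and 23.2 CPM in all 8 libraries. 

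**Figure D2:**
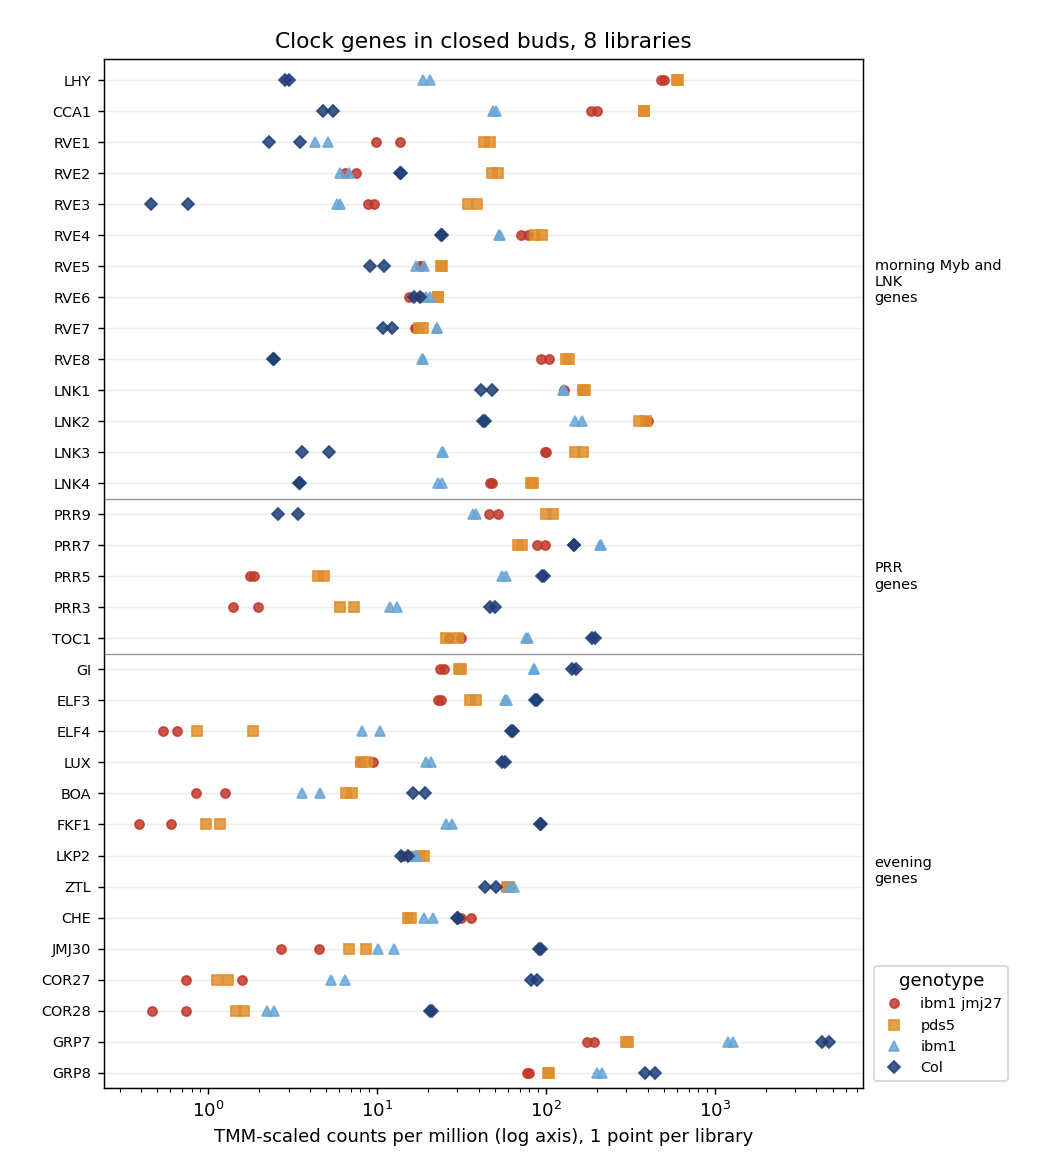
TMM-scaled CPM (x axis, log scale) of 33 clock genes (rows, by list) in each of the 8 libraries, coloured by genotype. Col (diamonds) is at the low end for LHY at 2.86 and 3.01 CPM and at the high end for FKF1 at 92.4 and 93.4 CPM, and ibm1 (triangles) lies between Col and the high-LHY genotypes for most genes.

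Of the 5 pseudo-response regulators, PRR9 was higher in the high-LHY set and the other 4 were lower by the set rule. Of all genes tested, 3.53% were higher and 2.51% lower. PRR9 (AT2G46790), the first of the series after dawn, was at 52.3 and 46.4 CPM in ibm1 jmj27, 111 and 100.1 CPM in pds5, 37 and 38.6 CPM in ibm1 and 3.42 and 2.6 CPM in Col. ibm1 was close to ibm1 jmj27 for this gene, and Col was far below. PRR7, the next in turn, was highest in ibm1 at 209.5 and 213 CPM, against 89.1 and 99 CPM in ibm1 jmj27, 72.4 and 68.3 CPM in pds5 and 147 and 147 CPM in Col. It was the one regulator of the series whose peak lay in ibm1.

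PRR5 (AT5G24470), which acts in the afternoon, was at 1.79 and 1.87 CPM in ibm1 jmj27 and 4.47 and 4.86 CPM in pds5, against 55 and 58.3 CPM in ibm1 and 95.4 and 97.5 CPM in Col, a set difference of -4.62. PRR3, which protects TOC1 from breakdown, was at 1.98 and 1.4 CPM in ibm1 jmj27, 7.35 and 6.09 CPM in pds5, 13.2 and 11.9 CPM in ibm1 and 49.9 and 47.1 CPM in Col. TOC1 (AT5G61380), the last of the series, was at 26.8 and 31.6 CPM in ibm1 jmj27, 30.3 and 25.7 CPM in pds5, 76.4 and 78.5 CPM in ibm1 and 187 and 195 CPM in Col. The 2 high-LHY genotypes overlapped for TOC1, and ibm1 and Col were apart from them and from each other. Col had the highest level of PRR5, PRR3 and TOC1, as it did for 11 of the 14 evening genes. The share of all genes that were highest in Col was not counted.

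Of those 14 evening genes, 10 were lower in the high-LHY set (2.51% of all genes were) and none was higher. The other 4 (BOA, LKP2, ZTL and CHE) did not meet the rule, and the list median was -1.996. FKF1 (AT1G68050), a blue-light receptor with an F-box that promotes flowering, was at 0.388 and 0.607 CPM in ibm1 jmj27 and 1.17 and 0.981 CPM in pds5, against 27.9 and 25.5 CPM in ibm1 and 93.4 and 92.4 CPM in Col. Its set difference of -5.93 was the lowest of all genes tested. ELF4 (AT2G40080), of the evening complex, was at 0.543 and 0.653 CPM in ibm1 jmj27, 1.86 and 0.858 CPM in pds5, 8.19 and 10.4 CPM in ibm1 and 64.3 and 62.6 CPM in Col. The sets did not overlap for either gene, and in both the 2 low-LHY genotypes were also apart.

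The other parts of the evening complex differed less: LUX by -1.96 and ELF3 by -1.27. LUX was at 7.96 and 9.52 CPM in ibm1 jmj27 and 8.79 and 8.09 CPM in pds5, against 20.9 and 19.6 CPM in ibm1 and 57.2 and 54.8 CPM in Col. GI (AT1G22770), which stabilises the F-box receptors, was at 23.6 and 24.9 CPM in ibm1 jmj27, 31.5 and 30.7 CPM in pds5, 85.3 and 85.5 CPM in ibm1 and 151 and 144 CPM in Col. JMJ30, a clock-associated jumonji demethylase, was at 4.54 and 2.71 CPM in ibm1 jmj27 and 8.64 and 6.86 CPM in pds5, against 12.6 and 10.1 CPM in ibm1 and 91.6 and 93.1 CPM in Col. For JMJ30, the ibm1 libraries were thus far nearer to pds5 than to Col.

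The same was seen for COR27 (AT5G42900) and COR28, a pair of repressors that tie the clock to cold. COR27 was at 1.59 and 0.747 CPM in ibm1 jmj27 and 1.14 and 1.31 CPM in pds5, against 5.33 and 6.49 CPM in ibm1 and 82.1 and 88.9 CPM in Col. GRP7 (AT2G21660) and GRP8, RNA-binding proteins that form an output loop of the clock, differed by -3.33 and -1.70. GRP7 was at 193 and 175 CPM in ibm1 jmj27, 299.7 and 306 CPM in pds5, 1288 and 1196 CPM in ibm1 and 4727 and 4336 CPM in Col, 4 levels without overlap.

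The 4 evening genes that did not meet the rule had each their own order. BOA, a close relative of LUX, was higher in pds5 (6.56 and 7.11 CPM) than in ibm1 (3.61 and 4.62 CPM), with ibm1 jmj27 at 0.854 and 1.26 CPM and Col at 16.4 and 19.4 CPM. CHE, a factor that represses CCA1, was at 36.2 and 31.6 CPM in ibm1 jmj27 and 15.3 and 15.9 CPM in pds5, against 21.4 and 19 CPM in ibm1 and 30.1 and 29.7 CPM in Col, so that each set held a high and a low genotype. The F-box receptors ZTL and LKP2, relatives of FKF1, stayed between 43.4 and 64.9 CPM and between 13.9 and 18.9 CPM in the 8 libraries.

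The libraries were put into the sets by LHY, but the labels give a comparison within each set that the choice of sets did not fix: ibm1 against Col in the low set and ibm1 jmj27 against pds5 in the high set. They share no library with each other, though both use libraries of the set difference. With edgeR's quasi-likelihood test and Benjamini-Hochberg adjustment over 21548 genes, 3552 genes (16.5%) were higher and 3128 (14.5%) lower in ibm1 than in Col, and 4126 (19.1%) were higher and 4468 (20.7%) lower in ibm1 jmj27 than in pds5, at an adjusted p under 0.05. With 2 libraries a genotype, the number of calls moved with single libraries: leaving out 1 library at a time gave 3709 to 9015 calls in ibm1 against Col (6680 with all) and 5865 to 10070 in ibm1 jmj27 against pds5 (8594 with all), as set out with the other settings in the closing part.

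In ibm1 against Col, 12 of the 14 morning genes rose (85.7% of the list, where 16.5% of all genes rose), 1 fell (RVE2, by 1.09 on the log2 scale, adjusted p = 1.37e-05 by edgeR) and RVE6 did not pass. CCA1 rose by 3.27 ± 0.10 (log2, SE, n = 2 libraries each; edgeR adjusted p = 2.75e-10), RVE3 by 3.24 ± 0.23 (adjusted p = 2.06e-07), RVE8 by 2.93 ± 0.12 (adjusted p = 1.81e-09) and LNK4 by 2.77 ± 0.10 (adjusted p = 6.66e-10). LHY, among the 12, defined the sets, so its rise of 2.74 ± 0.12 within the low set is a description. The call for RVE1 (0.71 ± 0.23, edgeR adjusted p = 0.0323) was lost without Col replicate 2 (0.41, adjusted p = 0.294), without ibm1 replicate 1 (0.83, adjusted p = 0.0703) and without ibm1 replicate 2 (0.57, adjusted p = 0.218).

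PRR9 rose by 3.66 ± 0.13 in ibm1 against Col (edgeR adjusted p = 6.66e-10) and PRR7 by 0.53 ± 0.07 (adjusted p = 0.000131), while PRR5, PRR3 and TOC1 fell by 0.77, 1.94 and 1.305. Thus 40% of the PRR genes rose and 60% fell, where 16.5% and 14.5% of all genes did. Of the 14 evening genes, 12 fell (85.7%, where 14.5% of all genes fell), ZTL rose by 0.41 ± 0.08 (edgeR adjusted p = 0.00182) and LKP2 did not pass. COR27 fell by 3.86 ± 0.14 (log2, edgeR adjusted p = 7.65e-10), JMJ30 by 3.02 ± 0.15 (adjusted p = 7.34e-08), ELF4 by 2.77 ± 0.15 (adjusted p = 3.58e-08) and GRP7 by 1.87 ± 0.09 (adjusted p = 6.6e-09). Within the low-LHY set, ibm1 thus had more RNA of most dawn genes and less of most evening genes than Col.

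In ibm1 jmj27 against pds5, 11 of the 14 morning genes fell (78.6%, where 20.7% of all genes fell) and none rose; RVE7, LNK1 and LNK2 did not pass. RVE2 fell by 2.84 ± 0.11 (log2, edgeR adjusted p = 2.53e-10), RVE3 by 2.00 ± 0.12 (adjusted p = 2.78e-08), RVE1 by 1.94 ± 0.15 (adjusted p = 5.43e-07) and CCA1 by 0.98 ± 0.08 (adjusted p = 4.08e-07). LHY, among the 11, defined the sets, so its difference of -0.29 ± 0.08 is a description. It was -0.28 without pds5 replicate 1, where its call was lost. The smaller fall of RVE4, 0.27 ± 0.07, was lost as a call without the same library (-0.20). Both calls were also lost with the 2 genotypes fitted alone. LNK2 differed by 0.09, with a 95% interval of -0.08 to 0.26 that holds 0. LNK1 differed by -0.21 with both ibm1 jmj27 libraries, but by -0.40 without ibm1 jmj27 replicate 2, where it passed (edgeR adjusted p = 7.78e-05).

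Evening genes were also lower in ibm1 jmj27 than in pds5: 10 of 14 fell (71.4%, where 20.7% of all genes did). CHE rose by 1.12 ± 0.10 (log2, edgeR adjusted p = 9.03e-07), and LUX, ZTL and COR27 did not pass. BOA fell by 2.71 ± 0.22 (edgeR adjusted p = 7.42e-07), JMJ30 by 1.07 ± 0.21 (adjusted p = 0.00174) and GRP7 by 0.72 ± 0.09 (adjusted p = 2.91e-05). Of the PRR genes, PRR9, PRR5 and PRR3 fell by 1.09, 1.35 and 1.97, and PRR7 rose by 0.42 ± 0.08 (edgeR adjusted p = 0.000733). Thus 60% of the PRR genes fell, where 20.7% of all genes did, and 20% rose, close to the 19.1% of all genes. TOC1 differed by 0.06 with a 95% interval of -0.15 to 0.26 and LUX by 0.04 with -0.21 to 0.29. Unlike in ibm1 against Col, morning and evening genes were mostly lower together in ibm1 jmj27.

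Some calls of evening genes depended on 1 library. Those of ELF4, FKF1 and LKP2 in ibm1 jmj27 against pds5 were also lost with the 2 genotypes fitted alone, and that of LKP2 in DESeq2's Wald test. ELF4 fell by 1.203 ± 0.38 in ibm1 jmj27 against pds5 (edgeR adjusted p = 0.0245), but the call was lost without pds5 replicate 1 (-0.53, adjusted p = 0.36), without ibm1 jmj27 replicate 1 (adjusted p = 0.129) and without ibm1 jmj27 replicate 2 (adjusted p = 0.0511). FKF1 fell by 1.14 ± 0.29 (edgeR adjusted p = 0.00726), and that call was lost without ibm1 jmj27 replicate 1 (-0.83, adjusted p = 0.102) and without pds5 replicate 1 (adjusted p = 0.0601). LKP2, which fell by 0.30 (edgeR adjusted p = 0.0339), lost its call without any 1 library of the high set other than ibm1 jmj27 replicate 2 (adjusted p of 0.0607 to 0.17), and without ibm1 replicate 1 (0.0506).

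**Figure D3:**
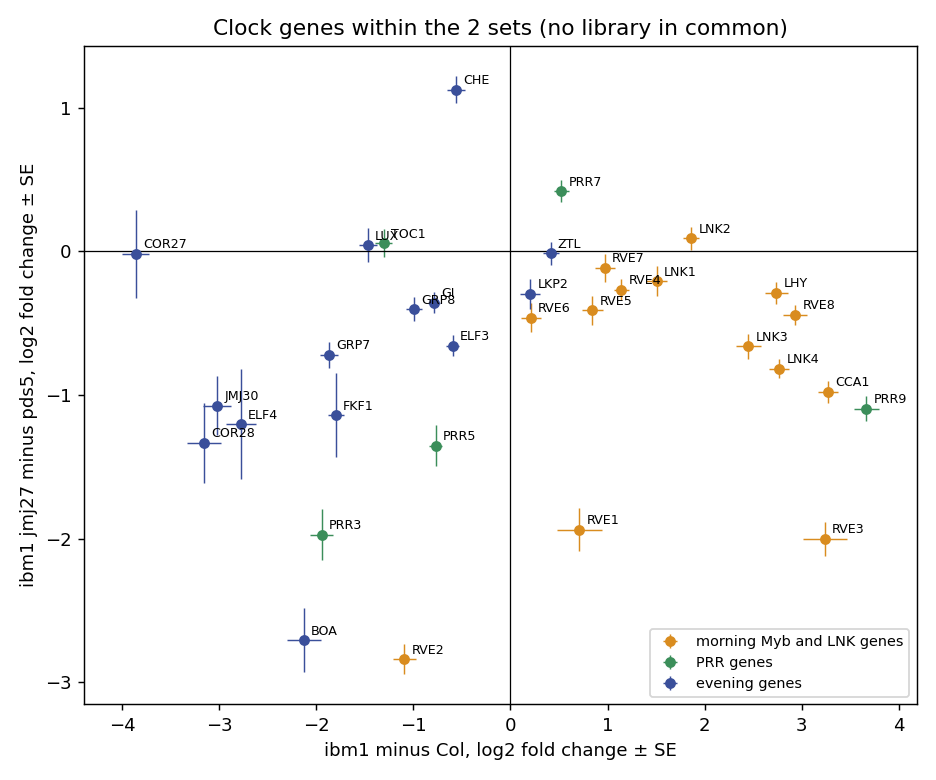
Log2 fold change of the 33 clock genes in ibm1 minus Col (x axis) and in ibm1 jmj27 minus pds5 (y axis), with SE bars, coloured by list; the 2 comparisons have no library in common. Morning genes lie mostly to the right of 0 and evening genes to the left, and most genes of either list lie below 0 on the y axis, down to -2.84 for RVE2.

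Transcription factors downstream of the clock differed between the sets in part. Of 11 tested genes of the CONSTANS-like and CDF list (TSF had too few counts), 3 were higher in the high-LHY set (COL2, COL1 and CDF2). COL9 was lower and 7 did not meet the rule, by which 3.53% of all genes were higher and 2.51% lower. COL2 (AT3G02380), a relative of the flowering gene CONSTANS, was at 53 and 59.4 CPM in ibm1 jmj27 and 121 and 113 CPM in pds5, against 19.2 and 19.9 CPM in ibm1 and 8.53 and 6.27 CPM in Col. COL1, its neighbour in the family, differed by 2.58, and COL9, a repressor of flowering, by -1.99. FT, the mobile flowering signal, was at 1.79 and 1.4 CPM in ibm1 jmj27, 2.62 and 2.08 CPM in pds5, 3.48 and 3.69 CPM in ibm1 and 2.55 and 2.3 CPM in Col, a low level in all 8 libraries. CDF1, a repressor of CONSTANS, was at 1.43 and 1.66 CPM in Col and between 3.96 and 8.09 CPM in the other 6 libraries.

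Within the low set, 6 of these 11 (54.5%) rose in ibm1 against Col and 3 (27.3%) fell, where 16.5% and 14.5% of all genes did. Within the high set, none rose in ibm1 jmj27 against pds5 and 8 (72.7%) fell, where 19.1% of all genes rose and 20.7% fell; the 8 became 5 without ibm1 jmj27 replicate 1 or without pds5 replicate 1. COL1 rose by 2.104 ± 0.12 in ibm1 (log2, edgeR adjusted p = 3.43e-08) and fell by 0.75 ± 0.09 in ibm1 jmj27 (adjusted p = 1.38e-05), and CDF3 rose by 1.46 ± 0.09 in ibm1 (adjusted p = 7.23e-08). CONSTANS itself (CO) fell by 0.96 ± 0.22 in ibm1 (edgeR adjusted p = 0.00482) and by 0.93 ± 0.21 in ibm1 jmj27 (adjusted p = 0.00281), at 1.87 to 5.34 CPM throughout. The deposited counts are not stated to use strand, so reads of CDF5 and of the antisense RNA that overlaps it cannot be told apart.

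Of the 16 B-box genes, 9 were higher in the high-LHY set (3.53% of all genes were) and 2 lower (2.51% of all genes were). The list median was 1.81. BBX31 (AT3G21890) and BBX30 encode small B-box proteins that act on CONSTANS; BBX31 was at 9.63 and 8.31 CPM in ibm1 jmj27 and 35.4 and 34 CPM in pds5, against 2.25 and 2.65 CPM in ibm1 and 0.255 and 0.128 CPM in Col. BBX30 was at 5.2 and 4.62 CPM in ibm1 jmj27, 16.4 and 15.1 CPM in pds5 and 0.573 and 0.688 CPM in ibm1, and had 0 and 3 counts in the Col libraries. BBX32, which restrains light responses, was at 14.2 and 14 CPM in ibm1 jmj27, 39.8 and 37.3 CPM in pds5, 2.77 and 3.98 CPM in ibm1 and 0.357 and 0.426 CPM in Col. All 3 had the order of CCA1, with pds5 highest and Col lowest. BBX16 had ibm1 jmj27 on top instead, at 9.47 and 12.5 CPM, with pds5 at 3.11 and 2.08 CPM, ibm1 at 1.32 and 1.77 CPM and Col at 0.0511 and 0.213 CPM.

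BBX25, a partner of HY5 that weakens it, was at 89.8 and 81.8 CPM in ibm1 jmj27, 78.5 and 77.9 CPM in pds5, 25.3 and 26 CPM in ibm1 and 6.18 and 6.78 CPM in Col. Its closest relative BBX24 did not meet the rule (0.48). The 2 lower genes were BBX17 (-1.57) and BBX22 (-1.47), of which BBX22 promotes light responses together with HY5. BBX21, which also acts with HY5, stayed between 9.98 and 12.5 CPM in the 8 libraries. In ibm1 against Col, 11 of the 16 rose (68.8%, where 16.5% of all genes did) and BBX20 alone fell. In ibm1 jmj27 against pds5, 2 rose (BBX16 and BBX22, 12.5%, below the 19.1% of all genes) and 6 fell (37.5%, where 20.7% of all genes did); the 2 became 4 without ibm1 jmj27 replicate 1.

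Of 17 light signalling and photoreceptor genes, 5 were higher in the high-LHY set (HYH, ELIP2, ELIP1, HY5 and PIL1) and PIF4 was lower. The shares of all genes were 3.53% higher and 2.51% lower. HY5 (AT5G11260), the main activator of light responses, was at 32.8 and 25.4 CPM in ibm1 jmj27 and 47.1 and 42.9 CPM in pds5, against 8.63 and 9.34 CPM in ibm1 and 9.24 and 8.78 CPM in Col. The low-LHY libraries overlapped, and the 95% interval of ibm1 against Col was -0.31 to 0.30. HYH, its homolog, was at 38.4 and 35 CPM in ibm1 jmj27, 46.6 and 48.9 CPM in pds5, 6.56 and 5.9 CPM in ibm1 and 3.27 and 2.98 CPM in Col. ELIP1 and ELIP2, light stress proteins of the thylakoid, differed by 2.98 and 3.17. ELIP2 was at 155 and 176 CPM in ibm1 jmj27 and 191 and 176 CPM in pds5, against 19.3 and 18.7 CPM in ibm1 and 20.3 and 18.8 CPM in Col, level within each set.

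PIF4, a growth-promoting factor, was at 3.8 and 3.08 CPM in ibm1 jmj27 and 3.49 and 3.68 CPM in pds5, against 16.4 and 14.5 CPM in ibm1 and 9.91 and 11.8 CPM in Col. PIF5, its close relative, was low in Col alone (9.96 and 10.4 CPM), with the other 6 libraries between 37.9 and 43.6 CPM, and rose by 1.98 ± 0.10 in ibm1 against Col (log2, edgeR adjusted p = 6.68e-09). The photoreceptor genes PHYA, CRY1, PHOT1 and PHOT2 overlapped between the sets or differed by less than 1, and CRY2 was at 70.8 and 83.6 CPM in ibm1 jmj27 and 65.3 and 67.2 CPM in pds5, against 145 and 143 CPM in ibm1 and 123 and 117 CPM in Col. Of the 17, 10 rose (58.8%, where 16.5% of all genes did) and none fell in ibm1 against Col; the 10 became 6 without Col replicate 1 or without ibm1 replicate 1. Of the same genes, 3 rose and 3 fell in ibm1 jmj27 against pds5, 17.6% each and close to the 19.1% and 20.7% of all genes. Those counts were 1 and 7 without ibm1 jmj27 replicate 2, 4 and 5 without ibm1 jmj27 replicate 1 and 1 and 3 without pds5 replicate 2.

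Flavonoid genes, which HY5 and HYH activate in seedlings, were higher in the high-LHY set in 6 of 11 (DFR, LDOX, F3H, CHI, MYB11 and FLS1). None was lower, and the list median was 1.013, where 3.53% of all genes were higher and 2.51% lower. F3H, an early enzyme of the route, was at 573 and 636 CPM in ibm1 jmj27 and 579.6 and 562 CPM in pds5, against 264 and 265 CPM in ibm1 and 197 and 204 CPM in Col. MYB11, one of the Myb factors that switch on flavonol enzymes, was at 25.1 and 23.7 CPM in ibm1 jmj27 and 28.4 and 23.8 CPM in pds5, against 12.9 and 13.8 CPM in ibm1 and 10.4 and 12.3 CPM in Col. Neither differed by over 0.5 log2 units within a set. CHS, the first enzyme, was higher without overlap but by 0.55 only, at 1481 to 1683 CPM in the high set and 1007 to 1125 CPM in the low set. The count of 6 moved between 4 and 7 when a library was left out or the scaling changed. Within the sets, 4 of the 11 (36.4%) rose and 1 (9.09%) fell in ibm1 against Col, where 16.5% and 14.5% of all genes did; the 4 became 1 without ibm1 replicate 1 and 2 without Col replicate 1. Within the high set, 3 (27.3%) rose and 4 (36.4%) fell in ibm1 jmj27 against pds5, where 19.1% and 20.7% of all genes did, and the 3 became 1 without pds5 replicate 1.

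Starch turnover genes differed between the sets in another manner. Of 24 genes, 13 were lower in the high-LHY set (2.51% of all genes were) and 1 (GBSS1) was higher (3.53% of all genes were). The other 10 did not meet the rule, and the list median was -1.04. The 13 lower genes include most of the route that breaks starch down at night: the dikinases SEX1 and PWD, the phosphatase SEX4, the amylases AMY3 and BAM3, the debranching enzymes ISA3 and LDA, the phosphorylases PHS1 and PHS2 and the disproportionating enzymes DPE1 and DPE2. The other 2, SBE2.1 and SS4, act in making starch. Without ibm1 jmj27 replicate 1, 10 were lower and 2 higher.

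ISA3 (AT4G09020), which removes branches from the granule, was at 51.4 and 46.4 CPM in ibm1 jmj27 and 43.8 and 45.1 CPM in pds5, against 257 and 258 CPM in ibm1 and 245 and 247 CPM in Col. PHS2, the glucan phosphorylase of the cytosol, was at 96.3 and 111 CPM in ibm1 jmj27 and 92.5 and 88.6 CPM in pds5, against 482 and 471 CPM in ibm1 and 528 and 516 CPM in Col. SEX1 (AT1G10760), which phosphorylates starch so that it can be degraded, was at 93.9 and 135 CPM in ibm1 jmj27 and 135 and 143 CPM in pds5, against 514 and 521 CPM in ibm1 and 502 and 487 CPM in Col. For all 3 genes the 2 genotypes of a set lay close together and the sets were far apart. The 4 pairs of genotypes gave -2.53 to -2.33 for ISA3, a span far narrower than the 4.65 to 7.64 of LHY.

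In ibm1 against Col, ISA3 differed by 0.07 (95% interval -0.09 to 0.22), PHS2 by -0.13 (-0.31 to 0.05) and SEX1 by 0.07 (-0.22 to 0.35), and none passed edgeR's test (adjusted p = 0.515, 0.249 and 0.74). PHS2 passed without ibm1 jmj27 replicate 1 (adjusted p = 0.0291) and without ibm1 jmj27 replicate 2 (adjusted p = 0.0292), at the same difference. In ibm1 jmj27 against pds5 they differed by 0.14 (-0.03 to 0.31), 0.20 (0.01 to 0.38) and -0.28 (-0.57 to 0.01), also short of the threshold with all libraries (edgeR adjusted p = 0.17, 0.0805 and 0.111). Without ibm1 jmj27 replicate 2, ISA3 (0.21, edgeR adjusted p = 0.0129) and SEX1 (-0.57, adjusted p = 2.56e-07) passed, and without ibm1 jmj27 replicate 1 PHS2 did (0.30, adjusted p = 0.00057). Over the whole list, 12 of the 24 genes rose and 1 (BAM3) fell in ibm1 against Col, where 16.5% of all genes rose and 14.5% fell. The 12 became 7 without either Col library or without ibm1 replicate 2, and the 1 became 3 without either ibm1 jmj27 library. Within the high set, 10 rose (41.7%, where 19.1% of all genes did) and 5 fell in ibm1 jmj27 against pds5 (20.8%, close to the 20.7% of all genes); the 5 became 8 without ibm1 jmj27 replicate 2.

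A limit chosen after these values were seen was used to describe that pattern: a gene was called level within the sets where ibm1 differed from Col, and ibm1 jmj27 from pds5, by less than 0.5 log2 units each. Of the 1302 genes that met the set rule, 293 (22.5%) were level within both sets, 164 of them higher and 129 lower in the high-LHY set. Of the 14 starch genes that met the rule, 7 were level (ISA3, PHS2, SEX1, DPE1, DPE2, SBE2.1 and SS4), as were 4 of the 6 flavonoid genes. Of the 24 clock genes that met the rule, none was level within both sets. SEX1 is in this class with both ibm1 jmj27 libraries, and differed by -0.57 between ibm1 jmj27 and pds5 without ibm1 jmj27 replicate 2. A gene called level can still pass the test within a set.

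GBSS1 (AT1G32900), which makes amylose, was the 1 starch gene that was higher, at 267 and 328 CPM in ibm1 jmj27 and 297 and 317 CPM in pds5, against 198 and 198 CPM in ibm1 and 47.6 and 45.8 CPM in Col. Col was far below the rest, and GBSS1 rose by 2.08 ± 0.10 in ibm1 against Col (log2, edgeR adjusted p = 5.79e-09). PHS1, the phosphorylase of the plastid, was at 162 and 188 CPM in ibm1 jmj27 and 114 and 107 CPM in pds5, against 520.2 and 539 CPM in ibm1 and 411 and 416 CPM in Col. The amylase genes BAM5 and BAM6 and the maltose exporter MEX1 overlapped between the sets.

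**Figure D4:**
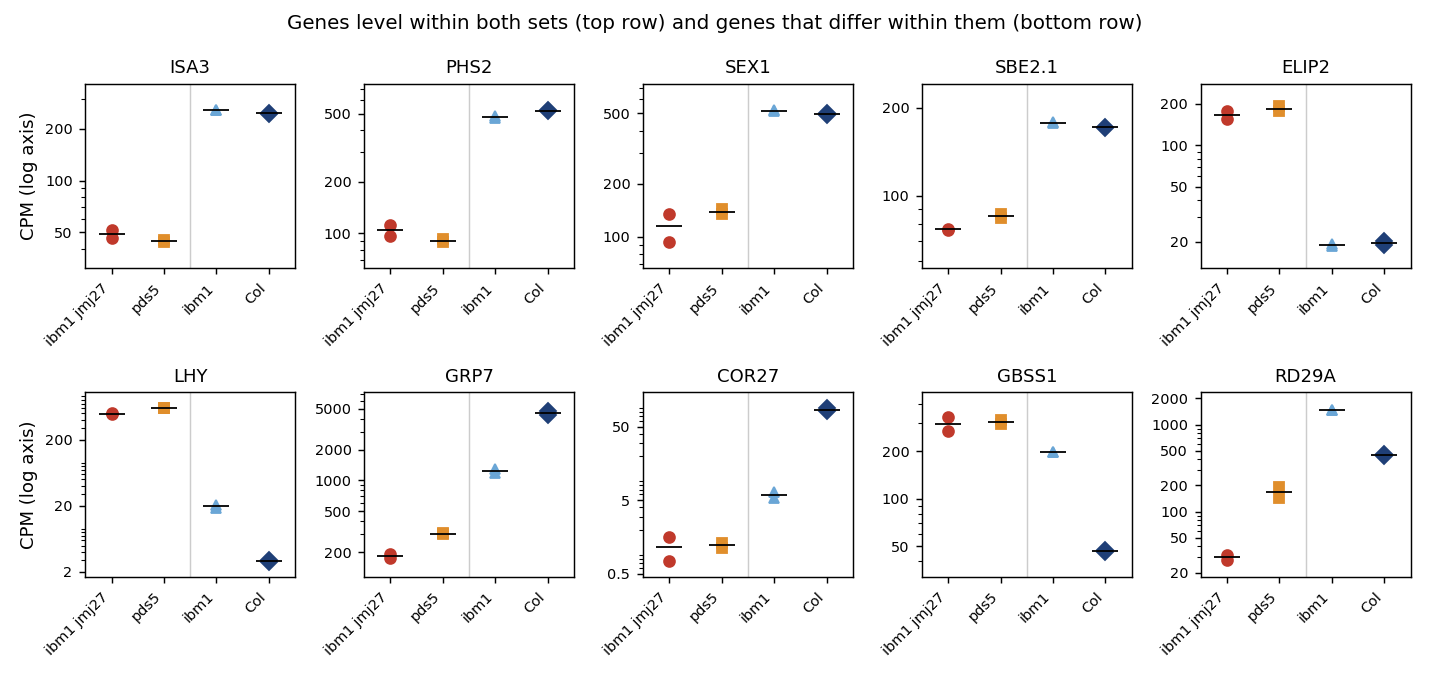
CPM (y axes, log scale) of 10 genes in the 8 libraries; points are libraries, bars are genotype means, and the vertical line parts the high-LHY genotypes (left) from the low-LHY genotypes (right). The genes, chosen after their values were seen, are level within both sets in the top row, such as ISA3 with set levels of 43.8 to 51.4 and 245 to 258 CPM, and differ within a set in the bottom row.

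Light-harvesting and chlorophyll genes did not part the sets. By the set rule, 3.53% of all genes were higher and 2.51% lower. Of the 24 genes on this list, GUN4 was higher and PORA and PORB lower in the high-LHY set, and 21 did not meet the rule. Col alone was low for most of them: 23 of the 24 rose in ibm1 against Col (16.5% of all genes did) and none fell. LHCB1.1, a major antenna protein, was at 2264 and 2522 CPM in ibm1 jmj27, 1232 and 1321 CPM in pds5, 1719 and 1684 CPM in ibm1 and 316 and 304 CPM in Col, and rose by 2.46 ± 0.09 in ibm1 (log2, edgeR adjusted p = 6.66e-10). LHCB2.3 was at 365 and 468 CPM in ibm1 jmj27, 114 and 132 CPM in pds5, 202 and 187 CPM in ibm1 and 41.1 and 36.5 CPM in Col. In ibm1 jmj27 against pds5, 19 of the 24 rose (79.2%, where 19.1% of all genes did). PORB alone fell (4.17%, where 20.7% of all genes did). The LHCB1 genes and the LHCB2 genes are near-identical copies, so the split of reads among them is uncertain.

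The summed level of these 24 genes was 27307 and 30482 CPM in ibm1 jmj27 and 19235 and 20372 CPM in pds5, against 25574 and 25026 CPM in ibm1 and 12256 and 11921 CPM in Col. The sets thus overlapped in this sum, ibm1 lying above pds5. In whole buds, fewer green cells and less of these RNAs per cell cannot be told apart. PORB (AT4G27440), which makes chlorophyllide in the light, went with the sets instead: it was at 47.9 and 65.6 CPM in ibm1 jmj27 and 72.4 and 79.3 CPM in pds5, against 451 and 436 CPM in ibm1 and 504 and 474 CPM in Col. It differed by -0.14 in ibm1 against Col (edgeR adjusted p = 0.377) and fell by 0.42 in ibm1 jmj27 against pds5 (adjusted p = 0.0137), by 0.66 without ibm1 jmj27 replicate 2; the call was lost without pds5 replicate 2 (adjusted p = 0.0899). GUN4, which helps insert magnesium into chlorophyll, was at 140.2 and 152 CPM in ibm1 jmj27, 141 and 154 CPM in pds5, 101 and 96.9 CPM in ibm1 and 44.1 and 44.6 CPM in Col. PORC, the third reductase of that step, overlapped between the sets at 97.9 to 157 CPM in the high set and 105 to 136 CPM in the low set.

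Of 13 cold response genes, 6 were lower in the high-LHY set (RD29A, CBF3, COR15B, COR6.6, COR47 and COR15A), where 2.51% of all genes were. None was higher, and the list median was -1.39. RD29A (AT5G52310), a gene of cold and drought, was at 28.2 and 31.7 CPM in ibm1 jmj27 and 191 and 144 CPM in pds5, against 1457 and 1479 CPM in ibm1 and 433 and 459 CPM in Col. CBF3, a transcription factor that switches such genes on, was at 0.932 and 0.56 CPM in ibm1 jmj27 and 3.26 and 2.21 CPM in pds5, against 29.3 and 27.2 CPM in ibm1 and 8.78 and 8.35 CPM in Col. Both were highest in ibm1 and not in Col, unlike the evening genes of the clock. COR15B, a protein that protects the chloroplast from freezing, was at 19.4 and 17.7 CPM in ibm1 jmj27 and 35.6 and 39.1 CPM in pds5, against 178 and 169 CPM in ibm1 and 237 and 239.7 CPM in Col.

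RD29A rose by 1.72 ± 0.12 in ibm1 against Col (log2, edgeR adjusted p = 2.01e-07) and fell by 2.49 ± 0.12 in ibm1 jmj27 against pds5 (adjusted p = 7.46e-09), and CBF3 rose by 1.72 ± 0.15 (adjusted p = 1.9e-06) and fell by 1.84 ± 0.27 (adjusted p = 0.000143). RD29B rose by 5.08 ± 0.40 in ibm1 (edgeR adjusted p = 6.14e-07), to 6.12 and 5.21 CPM against 0.204 and 0.128 CPM in Col. Over the list, 8 of 13 rose (61.5%, where 16.5% of all genes did) and 3 (COR15B, COR6.6 and KIN1) fell in ibm1 against Col (23.1%, where 14.5% of all genes did). None rose and 10 fell in ibm1 jmj27 against pds5 (76.9%, where 20.7% of all genes did), and the 10 became 6 without pds5 replicate 1 or without ibm1 replicate 1. The 8 came down to 5 without Col replicate 2 or without ibm1 replicate 2, and CBF1 and CBF2 were below 2 CPM in every library. KIN1 and COR6.6 are near-identical neighbours, as are the CBF genes, so the split of reads among them is uncertain.

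Of 12 tested genes that sugar starvation or darkness induces in leaves (DIN2 and DIN11 had too few counts), DIN10 alone met the rule, as lower. The share of all genes that did so was 2.51%. DIN10 was at 2.83 and 4.9 CPM in ibm1 jmj27 and 6.67 and 6.29 CPM in pds5, against 18.8 and 17.9 CPM in ibm1 and 88.8 and 85.8 CPM in Col. DIN6, an asparagine synthetase, was high in Col at 82.6 and 86.7 CPM, with 22.9 and 39 CPM in ibm1 jmj27, 12.5 and 11 CPM in pds5 and 21.9 and 22.1 CPM in ibm1, so the sets overlapped. Of the 12, 8 fell (66.7%, where 14.5% of all genes fell) and none rose in ibm1 against Col. In ibm1 jmj27 against pds5, 3 rose (25%, where 19.1% of all genes did) and 4 fell (33.3%, where 20.7% did).

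The 3 catalases, enzymes that remove hydrogen peroxide, went in different directions. CAT2 was at 329.6 and 472 CPM in ibm1 jmj27 and 348 and 391 CPM in pds5, against 185 and 185 CPM in ibm1 and 104 and 96.1 CPM in Col. CAT3, the evening catalase of the clock, was at 465 and 556 CPM in ibm1 jmj27 and 156 and 184 CPM in pds5, against 831 and 832 CPM in ibm1 and 1112 and 1079.6 CPM in Col. CAT2 was higher and CAT3 lower in the high-LHY set, and CAT1 was lower too, with a difference of -1.28. NIA2, the main nitrate reductase, was higher by 1.43, while NIA1 and the nitrite reductase gene NIR1 did not meet the rule.

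Over all genes, 167 had a symbol in the reference table, a mean log2 CPM of at least 1 and all 4 pairs of genotypes at least 1 apart in the same direction. LNK3 was not ranked, having no symbol there. The 12 highest differences, in order, were those of LHY, BBX31, BBX32, FSD1, CCA1, RVE8, DOT1, BETA-OHASE 2, cPT4, HYH, RD28 and ELIP2. FSD1 (AT4G25100), an iron superoxide dismutase, was at 173 and 215 CPM in ibm1 jmj27 and 192 and 260.3 CPM in pds5, against 50.8 and 42.4 CPM in ibm1 and 3.73 and 2.52 CPM in Col. BETA-OHASE 2, a carotenoid hydroxylase, was at 10.1 and 11.8 CPM in ibm1 jmj27 and 13.8 and 14.2 CPM in pds5, against 2.69 and 2.36 CPM in ibm1 and 0.357 and 0.554 CPM in Col. RD28, a water channel, had 36.6 and 41.8 CPM in ibm1 jmj27 and 109 and 111 CPM in pds5, against 10.7 and 12.4 CPM in ibm1 and 4.49 and 4.05 CPM in Col. All 3 were graded through ibm1, which lay between Col and the high-LHY set.

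The 12 lowest, in order, were FKF1, LTI30, ELF4, PRR5, MEE14, COR27, TPS03, RbcX1, RD29A, CBF3, GRP7 and CCL. LTI30 (AT3G50970), a dehydrin of cold and drought, was at 1.44 and 0.187 CPM in ibm1 jmj27 and 3.41 and 1.96 CPM in pds5, against 67.5 and 66.5 CPM in ibm1 and 30.4 and 33.4 CPM in Col. Its difference of -5.14 was -5.76 without ibm1 jmj27 replicate 1 and -4.52 without ibm1 jmj27 replicate 2. TPS03, a terpene synthase, was at 0.621 and 1.59 CPM in ibm1 jmj27 and 0.985 and 1.14 CPM in pds5, against 17 and 20.5 CPM in ibm1 and 20.7 and 20.1 CPM in Col. Its ibm1 jmj27 libraries lay on either side of pds5, and ibm1 jmj27 minus pds5 was 0.01 with both, 0.58 without ibm1 jmj27 replicate 1 and -0.77 without ibm1 jmj27 replicate 2. MEE14 was at 2.29 and 2.52 CPM in ibm1 jmj27, 4.81 and 6.25 CPM in pds5, 56.6 and 50.6 CPM in ibm1 and 116 and 114 CPM in Col, and RbcX1, an assembly factor of Rubisco, had the same order of genotypes. CCL was at 33.6 and 37.7 CPM in ibm1 jmj27 and 60.6 and 62.7 CPM in pds5, against 430.3 and 419.9 CPM in ibm1 and 524 and 515 CPM in Col.

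Genes with a symbol in the reference table that met the set rule were ranked by p in each within-set comparison. In ibm1 against Col, those with the smallest p were CCA1, PRR9, RVE8, RD20 and LHY, which rose, and COR27, FKF1, GRP7, DIN10 and ELF4, which fell. LHY defined the sets and the set rule chose the genes ranked, so the share of clock genes among them is a description only. LNK4 and COR28 had p-values as small but no symbol in that table, as had JMJ27 in ibm1 jmj27 against pds5, where it fell by 2.86. RD20, a drought-induced lipid droplet protein, was at 256 and 289.8 CPM in ibm1 jmj27, 455 and 488 CPM in pds5, 231 and 224 CPM in ibm1 and 50.9 and 44.7 CPM in Col. In ibm1 jmj27 against pds5, EXT3, CAT3, FBA5, JMT and TGG2 rose and ENODL6, NPC5, PAP11, DYL1 and RD29A fell, of which CAT3 and RD29A were on the lists. EXT3, a cell wall extensin, was at 263 and 277 CPM in ibm1 jmj27 and 113 and 113 CPM in pds5, against 336 and 324 CPM in ibm1 and 576 and 517 CPM in Col. DYL1, a dormancy-associated gene, was at 5.32 and 5.55 CPM in ibm1 jmj27 and 27.9 and 24.1 CPM in pds5, against 69.4 and 65.4 CPM in ibm1 and 143 and 159 CPM in Col.

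ENODL6, NPC5 and PAP11 met the set rule through ibm1 jmj27 nearly alone. ENODL6 was at 0.194 and 0.0467 CPM in ibm1 jmj27 and 17.5 and 17 CPM in pds5, against 21.8 and 22.3 CPM in ibm1 and 18 and 18.2 CPM in Col. PAP11 was at 0.0776 and 0.327 CPM in ibm1 jmj27 and 13.2 and 15.5 CPM in pds5, against 15.5 and 18 CPM in ibm1 and 23.3 and 21.9 CPM in Col. Differences of this kind, like that of JMJ27 itself, meet the rule although 1 of the high-LHY genotypes is close to the low-LHY set.

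Pollen and anther markers were summed in each library. For these whole-bud sums, fewer cells of a kind and less of these RNAs per cell cannot be told apart. The summed level of 20 pollen markers was 55.5 and 69.4 CPM in ibm1 jmj27 and 288 and 377 CPM in pds5, against 147 and 139 CPM in ibm1 and 365 and 359 CPM in Col. That of 21 tapetum markers, genes of the cell layer that feeds the pollen, was 1984 and 3321 CPM in ibm1 jmj27 and 5683 and 5874 CPM in pds5, against 5197 and 5036 CPM in ibm1 and 8709 and 9949 CPM in Col. Both sums were lowest in ibm1 jmj27 and, for pollen, pds5 and Col overlapped, so neither followed the LHY sets. No marker was at 0 in all libraries of a set, though the pollen genes AHA6, VGDH2 and ADF7 were at 0 to 0.0467 CPM in ibm1 jmj27.

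By the set rule, 1 of 18 tested pollen markers (MYB97, at under 1 CPM) and 2 of 21 tapetum markers (EXL4 and LAP6) were lower and none was higher; the 2 became 5 without ibm1 jmj27 replicate 2. The set rule called 2.51% of all genes lower and 3.53% higher. Within the sets, 11 of the 18 pollen markers fell in ibm1 against Col (61.1%, where 14.5% of all genes did) and 1 rose (5.56%, where 16.5% did). In ibm1 jmj27 against pds5, 13 fell (72.2%, where 20.7% of all genes did) and 3 rose (16.7%, where 19.1% did). Of the tapetum markers, 10 of 21 fell in ibm1 against Col (47.6%, where 14.5% of all genes did), and 5 rose and 5 fell in ibm1 jmj27 against pds5, 23.8% each and close to the 19.1% and 20.7% of all genes; the 10 became 4 without ibm1 replicate 2 and 5 without Col replicate 2. Of 8 floral organ regulators none met the rule. Without the fold limit, 4 of them were higher and 2 lower without overlap, as were 3239 and 2963 of the 21548 genes tested. The 8 regulators differed by -0.43 to 0.69 between the sets, and PI, which specifies petals and stamens, by 0.69. The part of anther and pollen content in the differences of the clock and its outputs was not tested.

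**Figure D5:**
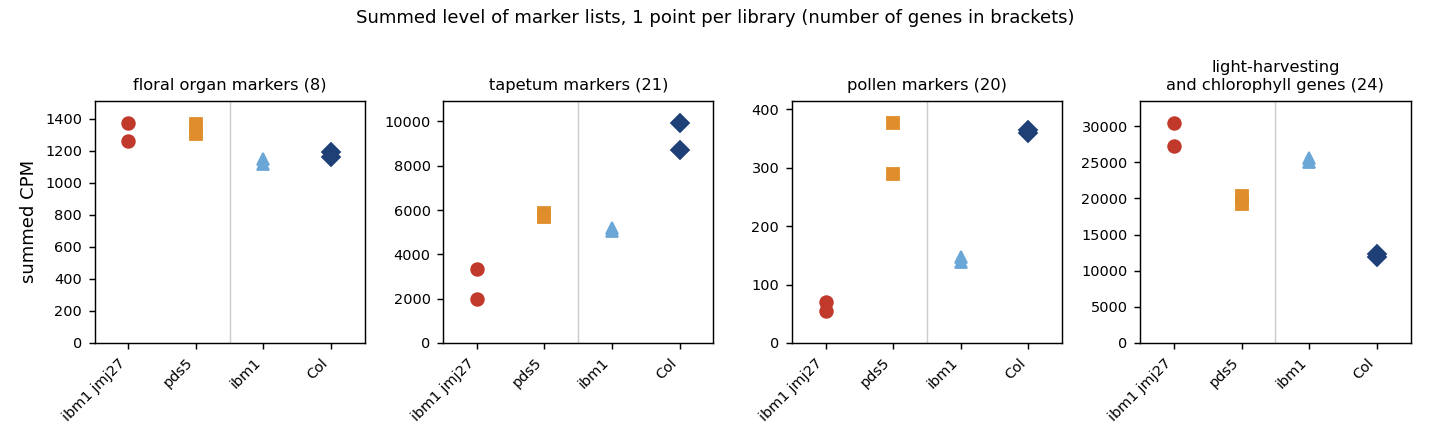
Summed CPM (y axes) of 4 marker lists in each of the 8 libraries, by genotype, with the number of genes in brackets; the vertical line parts the high-LHY genotypes (left) from the low-LHY genotypes (right). Pollen and tapetum sums are lowest in ibm1 jmj27, at 55.5 and 69.4 CPM and at 1984 and 3321 CPM, and the light-harvesting sum is lowest in Col.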

How the data were processed

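Poly(A) RNA of closed buds was sequenced as paired reads, per the labels' protocols. The authors' deposited tables hold raw read counts per gene, in 3 tables that each repeat the Col columns, which were used once. HISAT2, Subread and DESeq2 and the TAIR10 build are named in the submitters' processing notes; their versions and strand settings were not given in the sources used. No per-sample column was left unmapped (0).

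Libraries were put into the high-LHY and low-LHY sets by plain CPM (each gene's count scaled to a common library total). Tables were joined by locus, TMM factors were computed and genes filtered with edgeR 4.0.16 (R 4.3.3, limma 3.58.1), leaving 21548 of 27416 genes. Levels are TMM-scaled CPM. The set difference is the mean of the 2 genotype means of the high set minus that of the low set, in log2 CPM with a prior count of 2; it has no test, since the sets were chosen on the same libraries. A gene met the description rule where the sets did not overlap and differed by at least 1. The within-set comparisons used edgeR's quasi-likelihood test in 1 fit of all 4 genotypes (4 residual degrees of freedom), with Benjamini-Hochberg adjustment and a threshold of 0.05. The steps were tested on simulated counts with the same spread per gene in all 4 genotypes. The larger difference between the ibm1 jmj27 libraries was not simulated, so that check does not cover it.

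The 16 gene lists (226 genes, all present in the tables) and the members were chosen with earlier results of these data known. Genes were named by rule: all clock genes, up to 5 members of each other list that met the description rule and 3 that did not, and, among genes with a symbol, the 12 highest and 12 lowest differences and the 5 smallest p in each direction within each set; other named genes were chosen after their values were seen. Symbols came from a RefSeq table of TAIR10.1, which gave one for 10376 genes. A planned search of promoters for clock motifs was not run, since promoter sequences were not used here.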

Additional observations from a re-analysis of the deposited data

How the results depend on the processing

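The 1302 genes that met the set rule became 6202 with no minimum difference, 255 with a minimum of 2 and 455 with all 4 pairs of genotypes at least 1 apart; other scaling, filtering and prior counts gave 1293 to 1397, and leaving out 1 library 1406 to 1491. Of 134 named genes, 104 had an absolute set difference of at least 1, and none of these changed sign in any of 12 settings. Smaller differences were not checked for sign. In ibm1 against Col, the 6680 calls became 4017 at an adjusted p under 0.01 and 1530 with a minimum log2 fold change of 1; leaving out 1 library gave 3709 to 9015. In ibm1 jmj27 against pds5, the 8594 calls became 5550 and 2490 by the same limits, and 5865 to 10070 without 1 library; with the fold limit 37.1% of calls were higher, against 48.0% without it. Both limits are stricter by construction. For the set rule, leaving out 1 library loosens the demand for no overlap by construction, since fewer libraries must lie apart. The cause of the other moves was not tested. DESeq2's Wald test (1.42.0) gave 5058 and 6592 calls. With the 2 genotypes of a comparison fitted alone, the calls were 9399 and 6297, so ibm1 against Col then had more. In those fits, evening genes that fell in ibm1 jmj27 against pds5 went from 10 to 7 and cold response genes from 10 to 6. In ibm1 against Col, tapetum markers that fell went from 10 to 19, and the 12 evening genes that fell stayed at 12. CAT2, which did not pass in ibm1 jmj27 against pds5 (0.12), rose by 0.35 without ibm1 jmj27 replicate 1 and fell by 0.17 without replicate 2 (edgeR adjusted p = 0.000229 and 0.0497). Same-numbered libraries did not deviate together over the genes tested (correlations from -0.00671 to 0.101), and they were not treated as pairs. Such correlations cannot exclude that they were handled together. With the replicate number as a block, 7027 and 8909 genes were called. Low counts limit BBX30, DFR, CBF1, AHA6 and VGDH2, whose set differences moved by over 1.5-fold with a prior count of 0.5. The planned search of promoters was not run.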

Other observations

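Genes that were level within both sets, as defined for the starch genes, also occurred outside the lists; 5 examples from those with the highest and lowest set differences among genes with a symbol, chosen after their values were seen, are given here. PNP-A, a secreted peptide, was at 28.5 and 24.2 CPM in ibm1 jmj27 and 20.4 and 22.3 CPM in pds5, against 5.95 and 6.44 CPM in ibm1 and 5.00 and 4.31 CPM in Col. PR5, a thaumatin-like defence protein, was at 27.9 and 24.8 CPM in ibm1 jmj27 and 26.5 and 27.3 CPM in pds5, against 6.69 and 7.42 CPM in ibm1 and 6.64 and 4.22 CPM in Col. RUP2, which switches off the UV-B receptor, was at 27.9 and 31.6 CPM in ibm1 jmj27 and 40.9 and 38.8 CPM in pds5, against 10 and 10.3 CPM in ibm1 and 7.97 and 6.99 CPM in Col. All 3 were higher in the high-LHY set without overlap.

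GSTF12, a glutathione transferase needed to store anthocyanins, was at 26.2 and 25.2 CPM in ibm1 jmj27 and 26.6 and 26.5 CPM in pds5, against 9.38 and 8.8 CPM in ibm1 and 6.64 and 6.82 CPM in Col. COR413IM1, a cold-induced protein of the chloroplast envelope, was at 38.7 and 34.5 CPM in ibm1 jmj27 and 31.5 and 30.9 CPM in pds5, against 152 and 147 CPM in ibm1 and 118 and 107 CPM in Col. GSTF12 was higher and COR413IM1 lower in the high-LHY set. RUP2, GSTF12 and COR413IM1 nevertheless rose in ibm1 against Col, by 0.45, 0.43 and 0.41 on the log2 scale (edgeR adjusted p = 0.0116, 0.0106 and 0.000891), within the limit of 0.5.

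By mean level, 12 of the 14 morning genes were highest in pds5 and 12 were lowest in Col. Of the 14 evening genes, 10 were lowest in ibm1 jmj27 and 11 highest in Col. Of the 24 starch genes, 15 were highest in ibm1 and 11 lowest in pds5, and of the 13 cold response genes 7 were highest in ibm1 and 8 lowest in ibm1 jmj27. The order of genotypes was not counted over all genes tested. Whether these lists depart from the order of all genes is therefore not known.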
